A study of Mus musculus with 2 samples.

Results

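The cells described are stromal cells of the newborn mouse kidney that held the opioid precursor gene Penk and no detected Foxd1. A barcode was a member when it had at least 3000 unique molecular identifiers (UMIs, each standing for 1 captured RNA molecule), at least 500 genes, at most 20% mitochondrial UMIs, at least 2 Penk UMIs, at least 3 Col3a1 UMIs and 0 UMIs of Foxd1, Myh11, Kcnj8, Epcam and Pecam1. This rule chose 172 of 5529 cells (3.11%) in replicate 1 and 127 of 4206 cells (3.02%) in replicate 2, or 299 of 9735 cells in all. The exact binomial 95% intervals were 2.67% to 3.60% and 2.52% to 3.58%, and they cover counting error only. The members were thus chosen by measured UMI counts of these cells, and the levels of the genes in the rule are given below as a description.

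Both libraries were droplet single-cell RNA-seq of whole kidney at postnatal day P0, and both carried the genotype Rbpj c/+ ; Foxd1cre/+. This is 1 conditional and 1 intact allele of Rbpj, the DNA-binding partner of Notch receptors, with Cre recombinase under Foxd1 control, which acts in the renal stromal lineage. Only this genotype was present, and the comparisons below are between sets of cells within the same 2 libraries. The labels do not say whether the libraries came from separate animals. The p-values measure only how far the differences between cell sets varied between these libraries.

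The renal stroma is the connective tissue around nephrons, ducts and vessels. It arises largely from progenitors that express the transcription factor Foxd1 under the kidney capsule, and as the organ grows it is laid out in zones: a nephrogenic and cortical zone outside, and a medullary zone around the collecting ducts and loops. Medullary stroma is known for Wnt signalling, in which secreted Wnt proteins stabilise beta-catenin, which acts on genes together with the factors Lef1 and Tcf7. Penk encodes proenkephalin, which is cut by proteases into enkephalin peptides that act on opioid receptors. It is best known in neurons and the adrenal medulla and is also expressed by mesenchymal cells of developing organs.

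The members had a median of 10762 UMIs and 3718 genes in replicate 1 and 14543 UMIs and 4631 genes in replicate 2. No member barcode occurred in both libraries, against 6 among all cells. A doublet caller marked 2 members in replicate 1 and 0 in replicate 2, of 245 and 142 cells marked. Penk with Col3a1 was wider than the set described: 492 and 527 cells passed both counts, and 33.5% and 43.3% of them held Foxd1, 24.0% and 27.5% Kcnj8, 15.0% and 13.9% Epcam, 13.6% and 20.3% Myh11, and 3.86% and 6.26% Pecam1. A count of 0 Foxd1 UMIs means that none was captured at this depth, and a cell with little Foxd1 RNA can be among the members. The labels do not say whether the Foxd1cre allele still yields Foxd1 RNA, and its part in the Foxd1 counts was not tested. Just outside the rule were 34 and 15 cells with 1 Penk UMI, and just inside were 32 and 6 cells with 2.

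Penk (chromosome 4, 4133531 to 4138819, minus strand, GRCm38) stood at 1001 CPM (counts scaled to a total of 1000000 UMIs) in the members of replicate 1 and at 1433 CPM in those of replicate 2. A member held a median of 7 Penk UMIs in replicate 1, with a range of 2 to 52, and of 13 in replicate 2, with a range of 2 to 107. Members with few and with many Penk UMIs were both common, and 58.1% and 71.7% of members held 6 or more Penk UMIs. Penk was at 6.27 and 13.3 CPM in endothelial cells (Pecam1 of at least 3 UMIs), at 2.57 and 5.01 CPM in epithelial cells (Epcam of at least 3 UMIs) and at 37.1 and 70.7 CPM in barcodes with under 100 UMIs, which hold free RNA. With each cell thinned to 3000 UMIs, 86.6% and 85.8% of members held Penk, against 1.03% and 2.28% of endothelial cells. The rule asked for Penk in the members only, so this contrast follows from the choice of cells.

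**Figure D1:**
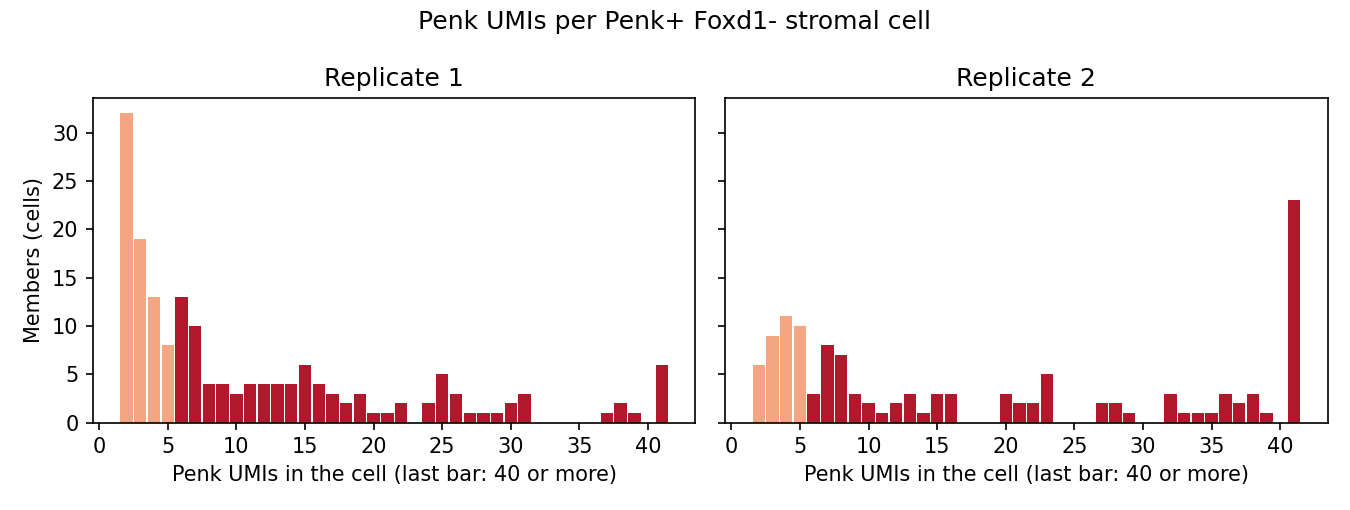
Members (vertical axis, cells) by the number of Penk UMIs in the cell (horizontal axis) in each library, with 2 to 5 UMIs in light and 6 or more in dark red and the last bar holding 40 or more. Low and high counts were both common, with 32 members at 2 UMIs in replicate 1 and 6 in replicate 2, and 58.1% and 71.7% of members in the dark bars.

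The machinery that turns proenkephalin into peptides in endocrine cells and neurons was near absent as RNA. Pcsk1, the main prohormone convertase, had 0 counts in both libraries, where a count of 0 allows up to 1.54 and 1.58 CPM. Pcsk2, a second convertase, had 0 and 1 counts, and Pcsk1n and Scg5, partners of these convertases, had 0 and 1 and 5 and 1 counts. Cpe, the carboxypeptidase that trims the cut peptides, was detected at 41.7 and 32.0 CPM, but free RNA held it at 47.1 and 32.2 CPM. The broadly expressed proteases Furin, Ctsl and Cpd were present, with Ctsl at 268 and 242 CPM and Cpd at 71.5 and 69.8 CPM. Among the receptors, Oprm1 had 4 and 0 counts, Oprd1 had 1 and 0, and Oprk1 had 0 and 0. Mme, the neutral endopeptidase that degrades enkephalins, stood at 70.0 and 57.8 CPM, and Ogfr, a receptor that binds met-enkephalin, at 33.5 and 38.9 CPM.

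Tests set the members against 2 other sets of stromal cells from the same libraries. The Foxd1-positive comparison cells (36 and 40 cells) had at least 2 Foxd1 UMIs and no Penk, and the Pdgfra comparison cells (71 and 56 cells) had at least 2 UMIs of Pdgfra, a receptor of fibroblasts, and neither Penk nor Foxd1. Both had at least 3 Col3a1 UMIs, no Six2, and the members' other limits. Counts were summed per library and set and tested with edgeR's quasi-likelihood test, with the library as a block and p-values adjusted by Benjamini-Hochberg over 9224 genes. The 10 genes used to choose cells were left out. Against the Foxd1-positive comparison cells 544 genes (5.9% of those tested) passed an adjusted p of 0.05, with 313 higher in the members (3.39%) and 231 lower (2.5%). Against the Pdgfra comparison cells 375 genes (4.07%) passed, 162 higher (1.76%) and 213 lower (2.31%). These shares stand as the background for the counts of called genes on each list below. Both comparisons share the members' sums, so a gene's values in each are given side by side and their likeness is not read as support. Every one of these calls had the same sign in both libraries. The number of calls depended on the model: DESeq2's Wald test called 230 and 142 genes, and 277 and 172 were called without the library block.

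The members held markers of renal stroma. Col1a1 and Col1a2, chains of fibrillar collagen I, stood at 1572 and 1119 CPM and at 1938 and 1481 CPM, against 44.9 and 49.6 and 58.5 and 62.2 CPM in endothelial cells. Pdgfra was at 216 and 219 CPM in the members. The renal stromal transcription factors Meis1 (766 and 908 CPM) and Tcf21 (436 and 476 CPM) were abundant. Of 24 genes of a list of renal and general stromal identity, 21 could be tested: 7 were higher and 3 lower against the Foxd1-positive comparison cells, and 3 higher and 1 lower against the Pdgfra comparison cells. The 3 lower in the first comparison were Pdgfrb, Col1a1 and Meis1. Without the library block the calls for Col1a1 and Meis1 were lost (edgeR adjusted p = 0.176 and 0.334). The list's median log2 fold changes were -0.02 and 0.00, beside 0.00 and 0.01 over all tested genes. Its sum was 12352 and 12684 CPM in the members, 8799 and 8206 CPM in endothelial and 1538 and 1285 CPM in epithelial cells. The list as a whole was thus not particular to stroma.

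Several genes of medullary stroma were higher in the members than in both comparison sets. Of 13 genes on a list of medullary stroma, all tested, 9 were higher and 1 lower against the Foxd1-positive comparison cells, with a median log2 fold change of 1.03. Against the Pdgfra comparison cells 5 were higher and 2 lower, with a median of 0.82. Wnt4, Wnt5a, Lef1, Cdkn1c and Alx1 were higher in both comparisons, and Dkk2 was lower in both. The list was drawn up with earlier results of these libraries known, so its direction is not independent evidence.

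Alx1, a homeodomain transcription factor on chromosome 10 (102998707 to 103030215, minus strand, GRCm38), stood at 137 and 256 CPM in the members. It was at 6.70 and 0 CPM in the Foxd1-positive and at 8.85 and 54.7 CPM in the Pdgfra comparison cells, so the members were the higher in each library. Against the Foxd1-positive comparison cells, with 3 counts in all, the ratio of pooled levels was 70.4 (95% counting interval 24.0 to 342; edgeR adjusted p = 4.68e-05). Against the Pdgfra comparison cells the log2 fold change was 2.69 (SE 0.33, edgeR adjusted p = 0.000405). DESeq2's Wald test did not call Alx1 in either comparison (adjusted p = 0.0752 and 1). Free RNA held Alx1 at 5.23 and 14.2 CPM and endothelial cells at 0.704 and 2.13 CPM. At 3000 UMIs per cell, 26.7% and 44.9% of members held an Alx1 UMI (55.8% and 76.4% without thinning), against 0.295% and 0.976% of endothelial cells, whose median depths were 12610 and 14214 UMIs.

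Wnt4, a secreted Wnt ligand, was at 61.8 and 197 CPM in the members, at 8.94 and 1.58 CPM in the Foxd1-positive and at 3.79 and 11.5 CPM in the Pdgfra comparison cells. The members were higher in both libraries, with log2 fold changes of 4.85 (SE 0.48, edgeR adjusted p = 6.64e-05) and 4.05 (SE 0.39, edgeR adjusted p = 7.46e-05), the latter not called by DESeq2 (adjusted p = 0.0627). Wnt4 was not particular to stroma: epithelial cells held 126 and 93.0 CPM and free RNA 90.9 and 69.3 CPM. That free RNA level was above both comparison sets, which came from the same libraries as the members, and in replicate 1 it was also above the members' own 61.8 CPM. The part of free RNA in the members' level was not tested.

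Lef1, the transcription factor that carries Wnt signals to genes, stood at 55.6 and 130 CPM in the members, against 2.23 and 4.75 CPM in the Foxd1-positive and 15.2 and 5.09 CPM in the Pdgfra comparison cells. Its log2 fold changes were 4.66 (SE 0.57, edgeR adjusted p = 0.000324) and 3.13 (SE 0.41, edgeR adjusted p = 0.000746). Free RNA held 21.2 and 17.7 CPM of Lef1 and epithelial cells 32.2 and 24.4 CPM. Cdkn1c, the cyclin-dependent kinase inhibitor p57, was at 569 and 1275 CPM in the members, at 433 and 439 CPM in the Foxd1-positive and at 350 and 307 CPM in the Pdgfra comparison cells. Its log2 fold changes of 1.03 (SE 0.25, edgeR adjusted p = 0.0267) and 1.41 (SE 0.25, edgeR adjusted p = 0.00507) were carried more by replicate 2 than by replicate 1. DESeq2 called Cdkn1c in neither comparison, and the call against the Foxd1-positive comparison cells was lost without the library block (edgeR adjusted p = 0.104).

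Other genes of the medullary list parted by comparison. Foxl1, a forkhead factor of medullary and gut mesenchyme, was at 17.0 and 21 CPM in the members against 0 and 1.58 CPM in the Foxd1-positive comparison cells, a ratio of 20.5 on 1 count (95% interval 3.56 to 820; not called by DESeq2), and against 8.85 and 12.7 CPM in the Pdgfra comparison cells. The claudin Cldn11 was at 47.9 and 56.2 CPM, against 0 and 3.17 CPM in the Foxd1-positive and 16.4 and 35.6 CPM in the Pdgfra comparison cells. The actin Acta2 and the matrix gene Frem1 were higher against the Foxd1-positive comparison cells, by 0.95 (SE 0.15) and 0.85 (SE 0.19) on the log2 scale, and both calls were lost without the library block. Bmp4, a growth factor, reached 70.5 and 73.0 CPM and passed in neither comparison. Tnc, a matrix glycoprotein, was at 77.7 and 101 CPM in the members and at 181 and 271 CPM in the Pdgfra comparison cells, lower by the test (log2 fold change -1.32, SE 0.16, edgeR adjusted p = 0.00042).

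**Figure D2:**
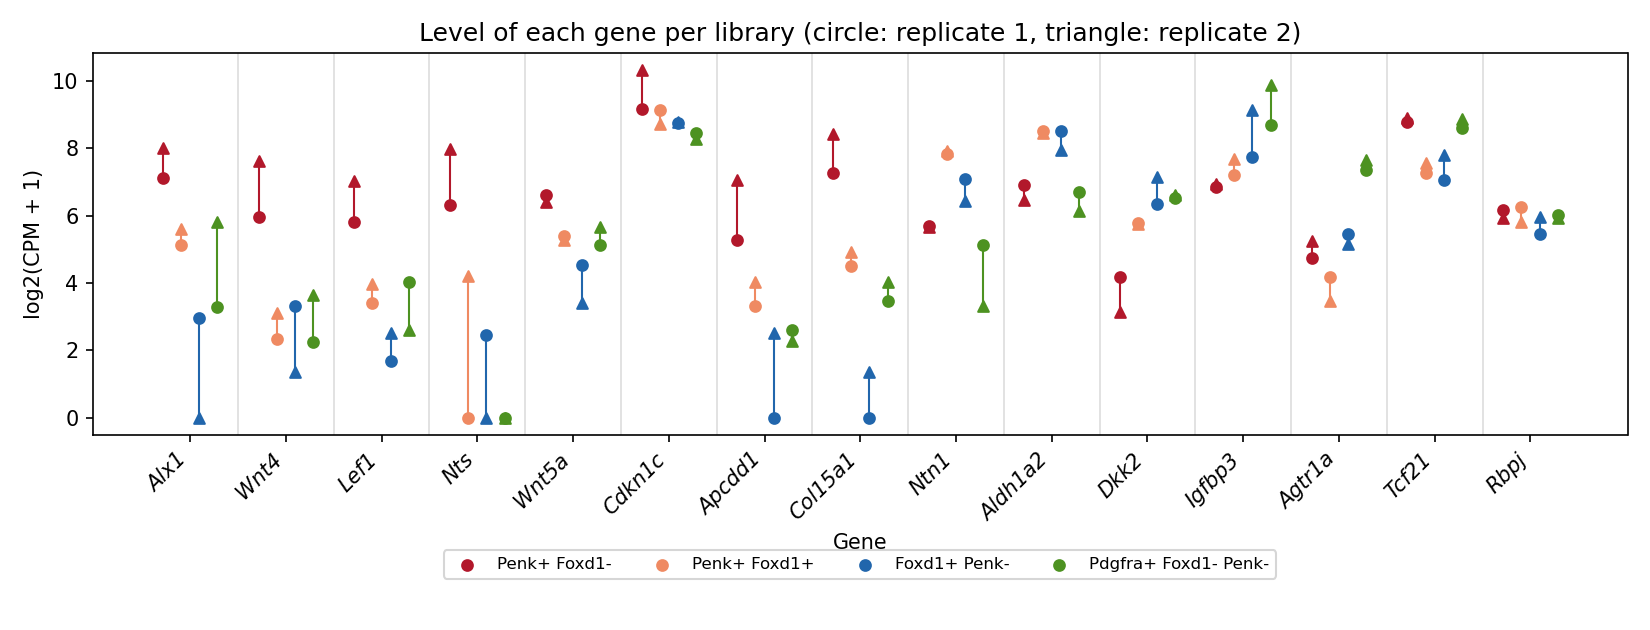
Level of 15 genes as log2(CPM + 1) on the vertical axis in 4 sets of stromal cells, with a circle for replicate 1, a triangle for replicate 2 and a line joining them. Alx1, Wnt4, Lef1, Nts, Apcdd1 and Col15a1 were higher in the members (dark red) than in each other set in both libraries, while Dkk2 and Igfbp3 were lower in the members than in each other set.

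Along the Wnt pathway, the ligands Wnt4, Wnt5a and Wnt11, the nuclear factors Lef1 and Tcf7 and the feedback genes Axin2 and Nkd1 were higher in the members than in both comparison sets, and the inhibitors Dkk1 and Dkk2 were lower. Of 29 genes on the Wnt list 21 could be tested. Against the Foxd1-positive comparison cells 9 were higher and 3 lower (median log2 fold change 0.65), and against the Pdgfra comparison cells 10 were higher and 2 lower (median 0.62), where the medians over all tested genes were 0.00 and 0.01. Several of these genes also stand on the medullary list. These tests took the members as a whole, and the levels of Wnt genes by Penk count, given below, were unequal within them.

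Among the ligands, Wnt5a was at 96.3 and 83.5 CPM in the members, 22.3 and 9.50 CPM in the Foxd1-positive and 34.1 and 49.6 CPM in the Pdgfra comparison cells, with log2 fold changes of 2.58 (SE 0.34) and 1.10 (SE 0.24). Wnt11 was at 33.5 and 52.0 CPM, with log2 fold changes of 2.56 (SE 0.42) and 1.27 (SE 0.30). Wnt5b passed only against the Pdgfra comparison cells, at 1.49 (SE 0.37, edgeR adjusted p = 0.0436). That call was lost under 4 alternatives, among them at most 10% mitochondrial UMIs (adjusted p = 0.052) and at least 3 Penk UMIs (adjusted p = 0.0614). Among the factors and feedback genes that respond to Wnt, Tcf7 was at 23.7 and 27.3 CPM, against 6.70 and 4.75 CPM in the Foxd1-positive and 8.85 and 6.36 CPM in the Pdgfra comparison cells. Axin2, a negative feedback gene, was at 26.3 and 26.3 CPM, against 6.70 and 6.33 CPM and 5.06 and 6.36 CPM. These are fold changes of 2.01 (SE 0.45, edgeR adjusted p = 0.0191) and 2.18 (SE 0.41, edgeR adjusted p = 0.00842) on the log2 scale. Nkd1, another feedback inhibitor, was higher by 1.76 (SE 0.31) and 1.46 (SE 0.27). DESeq2's Wald test called Axin2, Tcf7 and Wnt11 in neither comparison, and it called Wnt5a and Nkd1 only against the Foxd1-positive comparison cells. Without the library block, edgeR no longer called Wnt5a, Nkd1, Tcf7 and Wnt11 against the Pdgfra comparison cells (adjusted p = 0.0797, 0.0595, 0.0648 and 0.159).

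Among the extracellular inhibitors the direction was mixed. Apcdd1, a membrane inhibitor of Wnt signalling, was at 37.6 and 132 CPM in the members, against 0 and 4.75 CPM in the Foxd1-positive comparison cells (3 counts, ratio 30.4, 95% interval 10.3 to 148) and 5.06 and 3.82 CPM in the Pdgfra comparison cells (log2 fold change 4.2, SE 0.41). The secreted inhibitor Sfrp1 was at 452 and 853 CPM and higher by 0.89 (SE 0.12) and 0.55 (SE 0.12). Dkk2, a secreted antagonist of the Wnt co-receptor, was at 17.0 and 7.88 CPM in the members, 80.4 and 141 CPM in the Foxd1-positive and 91.1 and 98.0 CPM in the Pdgfra comparison cells. It was lower by the test in both comparisons, with log2 fold changes of -3.16 (SE 0.34, edgeR adjusted p = 0.000111) and -2.90 (SE 0.32, edgeR adjusted p = 0.000228). Dkk1, its relative, was at 72.6 and 22.1 CPM and was also lower, with log2 fold changes of -2.28 (SE 0.33) and -1.49 (SE 0.33). Ror1, a receptor for Wnt5a, was lower against the Foxd1-positive comparison cells (-1.20, SE 0.14). The calls for Sfrp1 and Dkk1 were lost in both comparisons without the library block.

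Genes of the cortical and nephrogenic zone did not move one way. Of 12 genes on that list 10 could be tested, and 3 were higher and 3 lower against the Foxd1-positive comparison cells (median log2 fold change -0.44), and 3 higher and 1 lower against the Pdgfra comparison cells (median 0.17). Aldh1a2, which makes retinoic acid, was at 119 and 87.7 CPM in the members, 369 and 245 CPM in the Foxd1-positive and 104 and 70.0 CPM in the Pdgfra comparison cells. Its log2 fold changes were -1.55 (SE 0.14, edgeR adjusted p = 2.92e-05) and 0.26 (SE 0.16, edgeR adjusted p = 0.498). Gdnf, the growth factor for the ureteric bud, was at 66.9 and 45.7 CPM, against 161 and 177 CPM in the Foxd1-positive comparison cells (log2 fold change -1.62, SE 0.22). Ntn1, a guidance protein of the outer stroma, was at 50.4 and 49.9 CPM against 136 and 85.5 CPM (-1.10, SE 0.27, edgeR adjusted p = 0.0299). Ntn1 was not called by DESeq2 or without the library block. Sfrp1 and Smoc2, a matricellular protein, were higher in the members in both comparisons, Smoc2 by 1.58 (SE 0.30) and 1.64 (SE 0.27), and Clca3a1 was lower against the Pdgfra comparison cells (-2.23, SE 0.20). DESeq2 called Smoc2 in neither comparison.

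By the rule for naming genes, the 12 highest against the Foxd1-positive comparison cells were Dpp10, Ano3, Col15a1, Lrriq1, Zfp536, Nts, Alx1, Mctp2, Cpa6, Dach2, Ano1 and Nav3. Lrriq1, a leucine-rich repeat protein, was the most abundant, at 1014 and 1245 CPM in the members, 20.1 and 0 CPM in the Foxd1-positive and 63.2 and 94.2 CPM in the Pdgfra comparison cells. It was detected in 75.6% and 82.7% of members. Its free RNA level was 32.1 and 49.9 CPM, and its log2 fold changes were 7.07 (SE 0.40, edgeR adjusted p = 1.05e-06) and 3.85 (SE 0.26, edgeR adjusted p = 8.62e-06), the latter not called by DESeq2. Nav3, a neuron navigator protein, was at 402 and 894 CPM, against 6.70 and 17.4 CPM and 44.3 and 62.4 CPM, and higher by 5.70 (SE 0.25) and 3.56 (SE 0.18). Endothelial cells held Nav3 at 260 and 308 CPM, so it was not limited to these cells. Dach2, a transcriptional cofactor, was at 212 and 374 CPM, against 6.70 and 4.75 CPM and 11.4 and 25.5 CPM, and higher by 5.76 (SE 0.30) and 3.99 (SE 0.21).

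Nts, which encodes the neuropeptide neurotensin, was at 78.8 and 250 CPM in the members. The Foxd1-positive comparison cells held 2 counts in all, a ratio of 88.2 (95% interval 24.3 to 730). The Pdgfra comparison cells held 0 counts, and against a floor of 3 counts over the group the members were at least 85.9-fold higher. Nts came from few cells: 9.88% and 24.4% of members held it, in 17 and 31 cells, and no cell held over 15.8% of the counts of its library. edgeR called it in both comparisons (adjusted p = 2.82e-05 and 1.65e-05) and DESeq2 in neither (adjusted p = 1 and 0.457).

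Col15a1, a collagen of basement membrane zones, was at 153 and 344 CPM in the members, 0 and 1.58 CPM in the Foxd1-positive and 10.1 and 15.3 CPM in the Pdgfra comparison cells. The ratio to the Foxd1-positive comparison cells rests on 1 count there and was 268 (95% interval 47.9 to 10580), and the log2 fold change against the Pdgfra comparison cells was 4.27 (SE 0.23, edgeR adjusted p = 8.67e-07). Endothelial cells held 186 and 199 CPM of Col15a1 and free RNA 52.8 and 29.5 CPM. Ano1, a calcium-activated chloride channel, was at 104 and 196 CPM against 6.70 and 0 and 22.8 and 42.0 CPM. Ano3, of the same family, was at 29.3 and 37.3 CPM, with 0 counts in the Foxd1-positive and 1 count in the Pdgfra comparison cells (at least 12-fold higher, and a ratio of 52.5 with an interval of 9.25 to 2088). Dpp10, an auxiliary subunit of potassium channels, was at 52.0 and 27.3 CPM with 0 counts in both comparison sets, and DESeq2 called it in neither comparison (adjusted p = 1 and 1). A single cell gave 51.5% of its counts in replicate 1, and for Cpa6, a carboxypeptidase, a single cell gave 28.9% in replicate 2.

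Against the Pdgfra comparison cells the 12 highest were Nts, Dpp10, Ano3, Galntl6, Dclk1, Col15a1, Apcdd1, Wnt4, Dach2, Id4, Lrriq1 and Nav3. Dclk1, a microtubule-associated kinase, was at 140 and 192 CPM in the members, 31.3 and 1.58 CPM in the Foxd1-positive and 3.79 and 11.5 CPM in the Pdgfra comparison cells (log2 fold changes 3.56, SE 0.49, and 4.43, SE 0.49), and DESeq2 called it in neither comparison. Id4, an inhibitor of basic helix-loop-helix factors, was at 34.0 and 44.6 CPM, against 2.23 and 3.17 and 2.53 and 2.55 CPM. Galntl6 was at 90.6 and 223 CPM, and a single cell gave 37.5% of its counts in replicate 1.

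The lowest genes in the members against the Foxd1-positive comparison cells were Megf11, Zfp804a, Brinp1, Dkk2, Shisa3, Ntrk3, Gprin3, Khdrbs2, C1qtnf3, Tspan11, Gxylt2 and Rcan2. Megf11, a cell-surface protein with EGF repeats, was at 2.57 and 3.68 CPM in the members, 31.3 and 131 CPM in the Foxd1-positive and 79.7 and 101 CPM in the Pdgfra comparison cells. Its log2 fold changes were -4.65 (SE 0.46, edgeR adjusted p = 6.32e-05) and -4.83 (SE 0.43, edgeR adjusted p = 5.57e-05). Shisa3, which restrains Wnt and FGF receptors, was at 55.6 and 16.8 CPM, against 275 and 321 CPM and 199 and 140 CPM. Ntrk3, a neurotrophin receptor, was at 5.15 and 4.73 CPM against 67.0 and 23.7 and 35.4 and 36.9 CPM.

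Against the Pdgfra comparison cells the lowest were Megf11, Esr2, Mical2, Dkk2, Ntrk3, Agtr1a, Maf, Serpinb6b, Lmcd1, Igfbp3, Epas1 and Nrp2. Agtr1a, the angiotensin II type 1a receptor, was at 25.7 and 37.3 CPM in the members, 42.5 and 34.8 CPM in the Foxd1-positive and 163 and 202 CPM in the Pdgfra comparison cells. It was lower than in the latter (log2 fold change -2.53, SE 0.19, edgeR adjusted p = 1.34e-05), while the first comparison gave -0.25 (SE 0.27, edgeR adjusted p = 0.768). Igfbp3, which binds insulin-like growth factors, was at 115 and 121 CPM, against 214 and 565 CPM and 412 and 947 CPM (-1.60, SE 0.24, and -2.40, SE 0.23), and the first call was lost without the library block (edgeR adjusted p = 0.0577). Epas1, the hypoxia-inducible factor 2 alpha, was at 16.5 and 16.8 CPM against 31.3 and 55.4 CPM and 87.3 and 89.1 CPM, and DESeq2 did not call the first difference (adjusted p = 0.164). The transcription factor Maf was at 40.1 and 21.5 CPM against 82.7 and 87.1 CPM and 140 and 202 CPM.

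**Figure D3:**
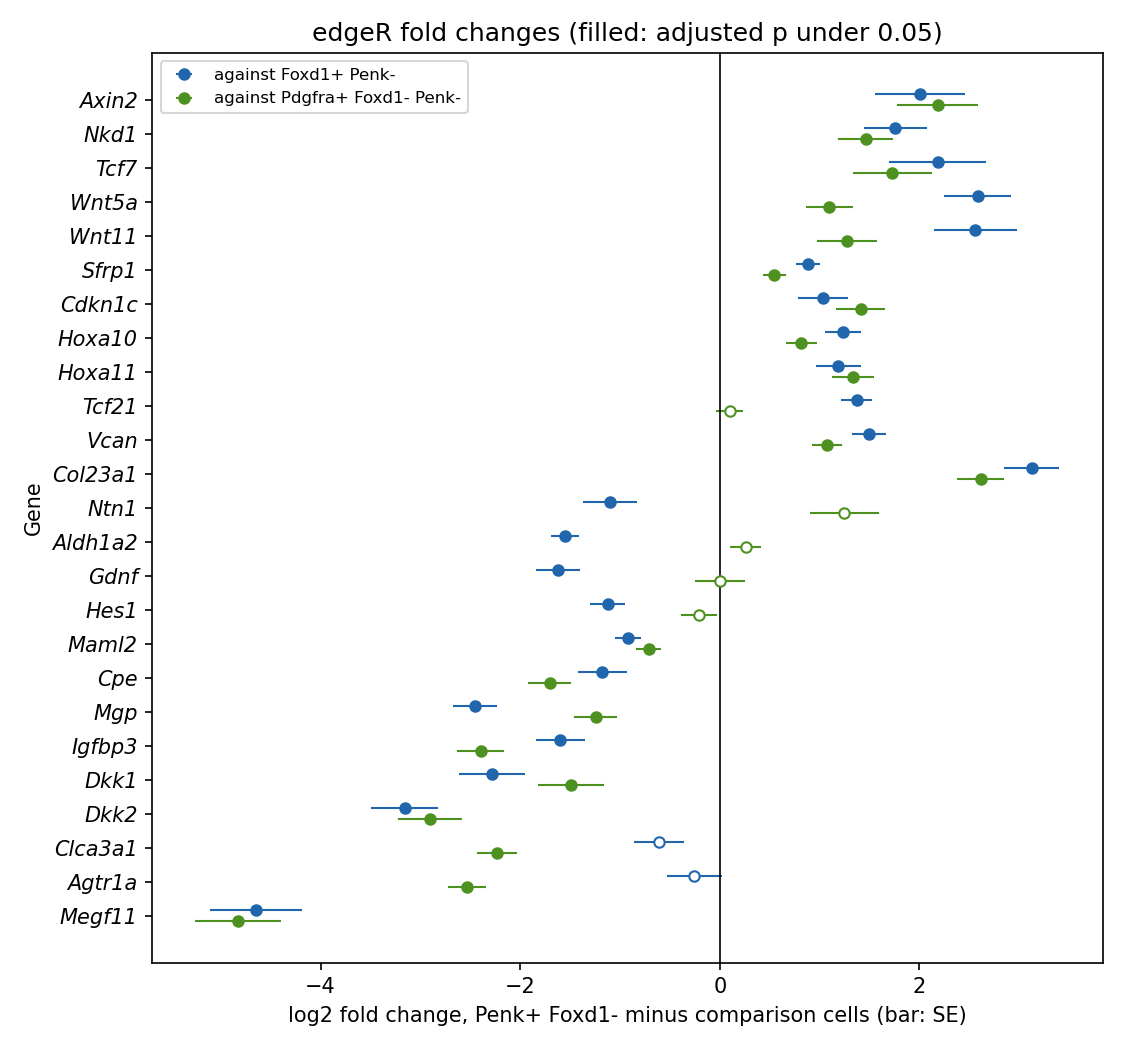
log2 fold change of the members over the Foxd1-positive (blue) and the Pdgfra (green) comparison cells on the horizontal axis, with its SE as a bar, for 25 genes on the vertical axis and filled points at an adjusted p under 0.05. Wnt pathway genes from Axin2 to Sfrp1 lie to the right in both, Megf11 lies farthest left at -4.65 and -4.83, and Aldh1a2 and Gdnf are filled only for the Foxd1-positive comparison.

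Positional and identity factors were unequal. Hoxa10 was at 205 and 223 CPM in the members, 105 and 80.7 CPM in the Foxd1-positive and 107 and 136 CPM in the Pdgfra comparison cells, higher by 1.24 (SE 0.18) and 0.82 (SE 0.16) on the log2 scale. Hoxa11 was higher by 1.18 (SE 0.22) and 1.34 (SE 0.21). Both are homeobox factors of posterior body and kidney development. Tcf21, a basic helix-loop-helix factor of kidney mesenchyme, was at 436 and 476 CPM against 132 and 222 CPM in the Foxd1-positive comparison cells (1.37, SE 0.15) and 391 and 466 CPM in the Pdgfra comparison cells (0.10, SE 0.14). Pdgfrb, the platelet-derived growth factor receptor of pericytes, was lower in both, at 106 and 69.8 CPM against 161 and 168 CPM and 186 and 218 CPM. Without the library block or with DESeq2, the calls for Hoxa11 in both comparisons, for Hoxa10 against the Pdgfra comparison cells and for Pdgfrb against the Foxd1-positive comparison cells were lost.

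Matrix genes were called in both directions. Of 40 genes on the matrix list 39 could be tested, and 8 were higher and 8 lower against the Foxd1-positive comparison cells, and 4 higher and 9 lower against the Pdgfra comparison cells. Over all tested genes, 3.39% were higher and 2.5% lower in the first comparison, and 1.76% higher and 2.31% lower in the second. Col23a1, a membrane-bound collagen, was at 57.7 and 169 CPM in the members, 8.94 and 17.4 CPM in the Foxd1-positive and 10.1 and 26.7 CPM in the Pdgfra comparison cells (3.12, SE 0.28, and 2.61, SE 0.23). Vcan, a large proteoglycan, was at 251 and 220 CPM, against 101 and 69.7 CPM and 113 and 111 CPM (1.5, SE 0.17, and 1.08, SE 0.15). In the other direction, Mgp, an inhibitor of calcification, was at 408 and 209 CPM, against 1448 and 1734 CPM and 914 and 536 CPM (-2.45, SE 0.22, and -1.24, SE 0.22). Fbln5, which helps assemble elastic fibres, had log2 fold changes of -0.97 (SE 0.21) and -1.5 (SE 0.20), and the first call was lost without the library block (edgeR adjusted p = 0.112). Mgp was not called against the Pdgfra comparison cells by DESeq2 or without the library block.

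For the enkephalin genes, Cpe was lower in the members than in both comparison sets, which stood at 84.9 and 83.9 CPM and at 99.9 and 143 CPM (-1.18, SE 0.25, edgeR adjusted p = 0.0119, and -1.71, SE 0.21, edgeR adjusted p = 0.000527). It was the single call among 4 tested processing genes of 8 listed. Mme was the single call among 5 tested genes of 9 on the list of receptors and breakdown enzymes, lower against the Foxd1-positive comparison cells (-0.86, SE 0.20, edgeR adjusted p = 0.02). DESeq2 called neither Cpe nor Mme against the Foxd1-positive comparison cells, and the call for Mme was also lost without the library block (edgeR adjusted p = 0.103).

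Rbpj, the gene with 1 conditional allele, was at 70.5 and 60.4 CPM in the members, 42.5 and 61.8 CPM in the Foxd1-positive and 64.5 and 59.8 CPM in the Pdgfra comparison cells, and did not pass in either comparison (0.30, SE 0.23, edgeR adjusted p = 0.657, and 0.08, SE 0.21, edgeR adjusted p = 0.925). Counts at the RNA's end do not show whether the conditional allele was recombined. Of 26 genes on the Notch list 13 could be tested. Against the Foxd1-positive comparison cells the co-activator Maml3 was higher, and its relative Maml2 and the target genes Hes1 and Heyl were lower. The calls of Maml3 and Heyl were lost without the library block (edgeR adjusted p = 0.0678 and 0.0547) and with DESeq2 (adjusted p = 0.0673 and 0.211). Hes1 was at 73.6 and 58.3 CPM against 181 and 112 CPM (-1.12, SE 0.18, edgeR adjusted p = 0.00197), and its call was lost without the library block. Against the Pdgfra comparison cells Maml2 was lower (-0.71, SE 0.13, not called by DESeq2 or without the library block) and Dlk1 higher. Dlk1, a non-canonical ligand, rested on few cells: it was in 25 and 22 members, a single cell gave 48.2% of its counts in replicate 2, and its call was lost without the library block (edgeR adjusted p = 0.184), with at least 6 Penk UMIs (edgeR adjusted p = 0.298) and with DESeq2 (adjusted p = 1).

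Of 12 Hedgehog genes 10 could be tested. Ptch1, the receptor and a target of the pathway, was at 205 and 310 CPM in the members, 96.1 and 88.7 CPM in the Foxd1-positive and 162 and 333 CPM in the Pdgfra comparison cells (1.51, SE 0.22, edgeR adjusted p = 0.00106, and 0.09, SE 0.18, edgeR adjusted p = 0.882). Hhip, a second target that binds the ligand, went the other way, at 12.4 and 20.5 CPM against 73.7 and 64.9 CPM and 68.3 and 67.4 CPM (-2.05, SE 0.28, and -2.04, SE 0.26). Boc, a co-receptor, was lower and Gas1, another, higher against the Foxd1-positive comparison cells. The call for Gas1 was lost under 6 alternatives, with adjusted p-values from 0.0529 with only the 2 sets in the fit to 0.541 with DESeq2.

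In the retinoic acid pathway 9 of 16 genes could be tested, and Aldh1a2 and Dhrs3, a retinaldehyde reductase, were lower against the Foxd1-positive comparison cells, with no call against the Pdgfra comparison cells. The call of Dhrs3 was lost without the library block (edgeR adjusted p = 0.12) and with DESeq2 (adjusted p = 0.0659). In the BMP and TGF-beta pathways 16 of 26 could be tested. Bmper, which binds BMPs outside the cell, was higher in both, at 22.6 and 34.7 CPM against 2.23 and 6.33 CPM and 1.26 and 3.82 CPM (2.68, SE 0.50, and 3.45, SE 0.50). Ltbp1, which holds latent TGF-beta in the matrix, was higher against the Pdgfra comparison cells (1.40, SE 0.22). DESeq2 did not call Bmper or Ltbp1.

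Within the members, some genes differed in level with the number of Penk UMIs. The genes described here were chosen after their values were seen, and the counts cover the whole lists. The 100 and 91 members with 6 or more Penk UMIs and the 72 and 36 with 2 to 5 had like median depths, 10821.5 and 14683 UMIs against 10327.5 and 14212. Alx1 was at 186 and 328 CPM in the first and at 66.6 and 66.6 CPM in the second. Lef1 was at 89.8 and 171 CPM against 6.29 and 20.9 CPM, and Wnt4 at 90.7 and 260 CPM against 20.1 and 32.3 CPM. Wnt4, Lef1, Axin2, Nkd1, Apcdd1, Tcf7, Wnt5a and Wnt11 summed to 562 and 1018 CPM against 173 and 188 CPM. Their sum was 124 and 130 CPM in cells with 0 Penk UMIs that met the other limits. Nkd1 was at 91.5 and 181 CPM against 35.2 and 38.0 CPM, and those cells with 0 held 37.2 and 37.6 CPM. Wnt5a was at 132 and 103 CPM against 44.0 and 32.3 CPM. Of the 13 genes on the medullary list 9 were higher in the members with more Penk in both libraries, 2 (Tnc and Slit2) were lower in both, and 2 (Cldn11 and Dkk2) differed in direction between the libraries. The same count was not made over all genes. The list's count is therefore not read as a result about medullary genes. Pdgfra differed little, at 226 and 230 CPM against 202 and 192 CPM. Nts was almost confined to the upper tier, with 152 of 153 counts in replicate 1 and 476 of 476 in replicate 2. Dach2 was at 343 and 496 CPM against 22.6 and 53.3 CPM, and Cdkn1c at 644 and 1632 CPM against 461 and 339 CPM.

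Of the 12 genes on the cortical list 7 were lower in members with 6 or more Penk UMIs in both libraries, 2 (Sfrp1 and Fat4) were higher in both, and 3 differed in direction between the libraries. This count too stands without one over all genes and is a description only. Ntn1 was at 14.8 and 22.5 CPM in members with 6 or more Penk UMIs and at 102 and 122 CPM in those with 2 to 5. Aldh1a2 was at 75 and 46.4 CPM against 184 and 196 CPM, and Gdnf at 34.9 and 29.0 CPM against 113 and 89.4 CPM. Sfrp1 was at 510 and 942 CPM against 370 and 618 CPM. The levels did not follow Penk down to 0: cells that met the other limits with 0 Penk UMIs held Ntn1 at 29.0 and 18.4 CPM and Aldh1a2 at 114 and 81.1 CPM, below the members with 2 to 5. The lower tier stood close to the Foxd1-positive comparison cells in Ntn1, which held 136 and 85.5 CPM, but not in Dkk2, at 26.4 and 7.61 CPM against their 80.4 and 141 CPM. Cells just outside the rule, with 1 Penk UMI, held Alx1 at 79.5 and 72.7 CPM, near the lower tier, and Lef1 at 5.68 and 17.1 CPM. Penk chose the members, so this order is a description and was given no test. A cell with few Penk UMIs and 0 of Foxd1 carries less evidence for its place in the set than one with many.

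**Figure D4:**
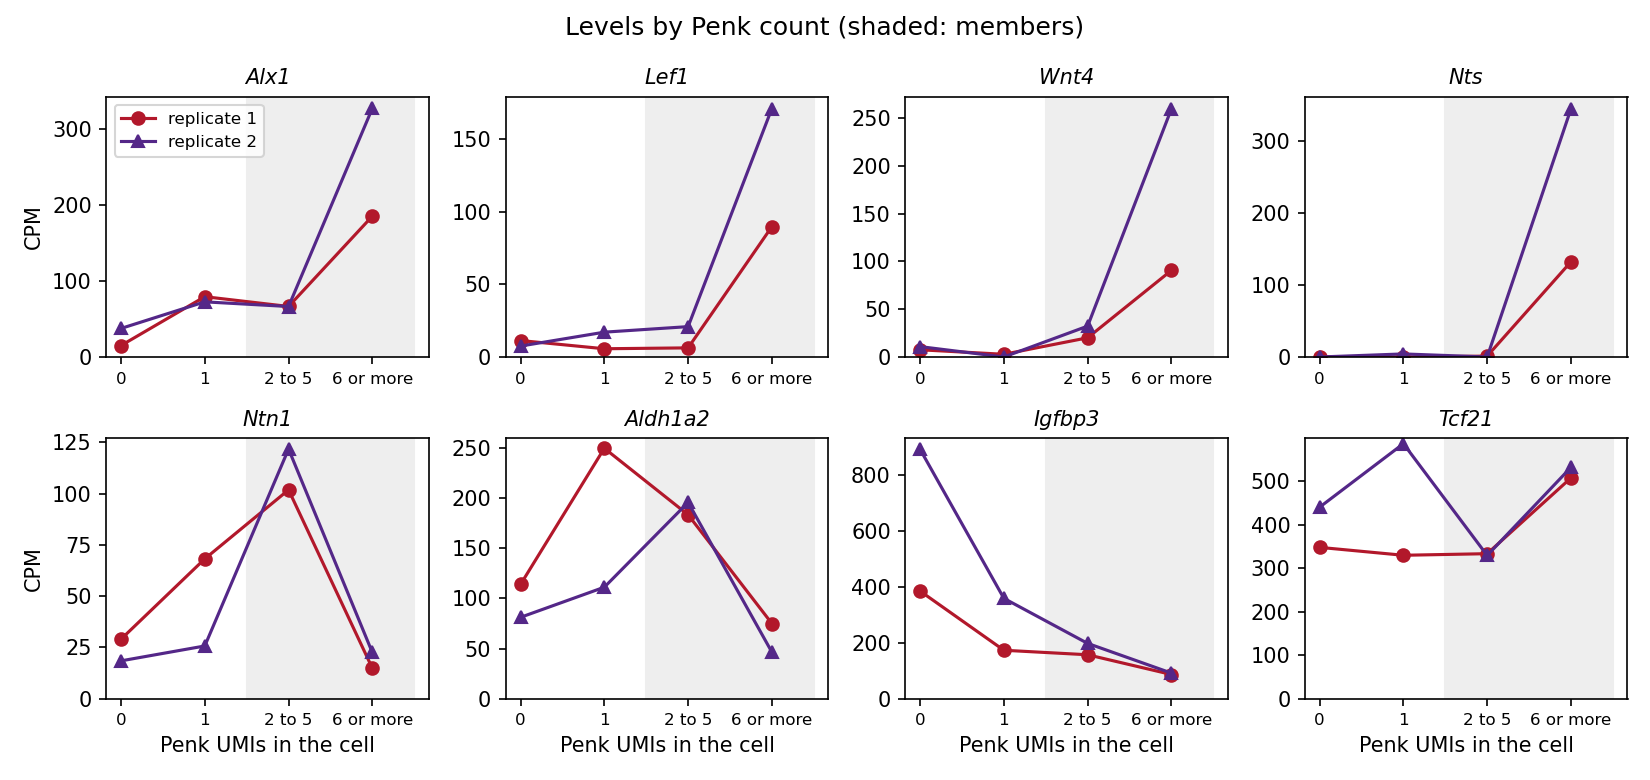
CPM of 8 genes (vertical axes, each starting at 0) in cells that met the members' other limits, by the Penk UMIs in the cell (horizontal axis), with 1 line per library and the members shaded. Alx1, Lef1, Wnt4 and Nts peak at 6 or more Penk UMIs in both libraries, and Ntn1 peaks at 2 to 5.

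Joint detection in single members is given for some of the same genes. It comes from the same cells as the levels by Penk count and is not separate evidence. Of members with a Lef1 UMI, 83.3% and 94.3% also held Alx1, against 46.9% and 63.5% of members without Lef1. Of members with an Ntn1 UMI, 17.9% and 52.2% held Alx1, against 63.2% and 81.7% of those without. Wnt4 and Lef1 were found together in 11 of 25 and 28 of 48 members with Wnt4, and 31 of 147 and 25 of 79 members without Wnt4 held Lef1. Deeper cells hold more of any gene, which raises shares of joint detection, and these shares were given no test.

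Cells that met the rule except that they held Foxd1 numbered 96 and 126. They held Penk at 421 and 365 CPM, below the members' 1001 and 1433 CPM. Their Alx1 (33.8 and 47.8 CPM), Wnt4 (4.03 and 7.61 CPM) and Lef1 (9.67 and 14.8 CPM) lay below the members in both libraries. Their Ntn1 (225 and 243 CPM), Aldh1a2 (366 and 347 CPM), Gdnf (239 and 205 CPM) and Igfbp5 (1481 and 1607 CPM) lay above, where the members held 306 and 388 CPM of Igfbp5. Of these cells 44.8% and 29.4% held exactly 1 Foxd1 UMI.

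The 2 libraries differed from each other within the members in some of these genes. Replicate 2 held 197 CPM of Wnt4 against 61.8 CPM in replicate 1, 250 against 78.8 CPM of Nts, 1275 against 569 CPM of Cdkn1c and 132 against 37.6 CPM of Apcdd1. Replicate 1 held 687 CPM of Dcn, a small proteoglycan, against 346 CPM, 176 against 59.9 CPM of Dlk1, and 230 against 109 CPM of the proliferation marker Mki67. The share of members with 6 or more Penk UMIs also differed, 58.1% against 71.7%. With 1 library each there is no test of these differences.

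Of 38 proliferation genes, all tested, 1 was higher against the Foxd1-positive and 2 against the Pdgfra comparison cells, and 0 were lower. Over all tested genes 3.39% and 1.76% were higher, and 2.5% and 2.31% lower. The few calls on the list are therefore not read as a result about proliferation. Mki67 was at 230 and 109 CPM in the members, 210 and 155 CPM in the Foxd1-positive and 143 and 140 CPM in the Pdgfra comparison cells, and Top2a at 414 and 187 CPM, 340 and 247 CPM and 212 and 200 CPM, with no call for either. Tyms, of nucleotide synthesis, was higher against both (0.90, SE 0.24, edgeR adjusted p = 0.0469, and 1.31, SE 0.23, edgeR adjusted p = 0.00516). The first call was lost under 7 alternatives, with an adjusted p of 0.0506 once doublets were removed. At 3000 UMIs per cell, 24.4% and 15.0% of members held Mki67 (32.6% and 22.0% without thinning), and 23.6% and 18.9% of endothelial cells did.

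Markers of other cell types were low. The summed level of 7 nephron progenitor genes was 24.2 and 15.8 CPM in the members, and 8.94 to 14.2 CPM in the 2 comparison sets. Six2 is in this sum and had to be 0 in the comparison sets but not in the members, where it had 7 and 0 counts. In replicate 1 a single member gave 15 of the 17 counts of Cited1, also on the list. The sums of 6 podocyte genes (39.1 and 34.1 CPM) and 14 epithelial genes (94.2 and 112 CPM) lay within or near the ranges of the comparison sets, 28.5 to 49.6 CPM and 90.2 to 107 CPM. Of the immune list, the sums were 7.72 and 4.73 CPM with Ptprc at 0 in both libraries, and Sox10, which defines glia, was at 0.

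The endothelial list of 9 genes summed to 133 and 144 CPM in the members and to 60.3 to 95.4 CPM in the comparison sets. Emcn, an endothelial sialomucin, made up 91.1 and 112 CPM of it, with free RNA at 85.9 and 100.4 CPM. It was called higher in both comparisons (2.32, SE 0.32, and 1.18, SE 0.24), the latter not by DESeq2 or without the library block. The defining genes Cdh5 (3.09 and 0.525 CPM), Kdr (1.54 and 3.68 CPM) and Plvap (3.09 and 2.10 CPM) were near 0. The mural list of 13 genes summed to 1451 and 2797 CPM, between the Foxd1-positive (1124 and 2125 CPM) and the Pdgfra comparison cells (1529 and 3488 CPM). Its contractile genes Acta2, Tagln and Des were higher against the Foxd1-positive comparison cells, and its pericyte genes Rgs5 and Pdgfrb were lower in both comparisons. Without the library block edgeR no longer called Tagln (adjusted p = 0.519), Des (adjusted p = 0.0605) or Rgs5 (adjusted p = 0.395 and 0.27), and DESeq2 did not call Des (adjusted p = 0.191).

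Haemoglobin RNA moved with 1 cell. Haemoglobin genes held 907 CPM in the members of replicate 1 and 117 CPM in those of replicate 2, and 1449 of the 1763 UMIs in replicate 1 came from a single cell, without which the level was 162 CPM. The 4 haemoglobin genes tested were called higher against the Foxd1-positive comparison cells, and Hbb-bt against the Pdgfra comparison cells, and the part of that cell in these calls was not tested. The ureter and urothelium list of 6 genes summed to 104 and 144 CPM in the members and to 24.6 to 70.0 CPM in the comparison sets. Tshz3, a zinc finger factor, made up 93.7 and 138 CPM of it and was higher in both comparisons. It was the only gene of the list that could be tested. Tbx18 had 18 and 11 counts, Upk1a 2 and 0, Upk3a 1 and 1, and Upk1b and Krt5 were at 0 in both libraries. Among genes induced by tissue dissociation, 7 of 14 could be tested, with Jun higher and Junb and Egr1 lower against the Foxd1-positive comparison cells and Junb lower against the Pdgfra comparison cells.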

How the data were processed

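The values are UMI counts per gene and barcode, 1 matrix for each library, listing all barcodes and 32285 genes. The authors deposited counts made with Cell Ranger 6.0.1 on mm10, per the submitters' processing notes, while the file headers name Cell Ranger 4. The libraries held 200331687 and 173166168 UMIs. Every column of per-sample values was used.

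Cells, members and comparison cells were chosen as given above. A further marker, required to be at 0 in the comparison cells and, with Six2, in the members under the stricter marker limits tried as an alternative, is not reported here. Doublets were marked by the highest Scrublet scores in scanpy 1.11.5, up to the number set in advance. Counts were summed per library and set, giving 6 sums, and tested with edgeR 4.0.16 (R 4.3.3; TMM scaling, filterByExpr, quasi-likelihood F test, library as a block, two-sided), with Benjamini-Hochberg adjustment and a threshold of 0.05. Cells were never used as replicates. The library is the same suspension for all sets, which is where the pairing comes from. CPM are summed counts scaled to 1000000 UMIs of the set. Where a comparison set had 1 to 3 counts, the ratio of pooled levels has an exact 95% interval; where it had 0, a floor of 3 counts over the group was used. Coordinates are GENCODE M21 on GRCm38.

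Named genes were the 12 with the highest and the 12 with the lowest log2 fold change in each comparison among those called, with the same sign in both libraries and at least 20 CPM in both libraries of the higher set, without predicted, mitochondrial or haemoglobin genes, and members of the gene lists. The members and lists were chosen with earlier results of these data known. On simulated data with the same UMI totals, 46% of 2-fold and 90% of 4-fold changes were called against the Foxd1-positive comparison cells, and 57% and 89% against the Pdgfra comparison cells, with 9 and 5 of 9024 unchanged genes called. The simulation drew each sum independently, at the spread fitted for genes of like level. It held no genes whose counts came largely from 1 cell, so these rates do not cover such genes. DESeq2 1.42.0 was an alternative.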

Additional observations from a re-analysis of the deposited data

How the results depend on the processing

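The 544 and 375 genes called against the Foxd1-positive and the Pdgfra comparison cells became 822 and 679 with no filter on low counts and 230 and 142 with DESeq2's Wald test. Without the replicate block, which pairs the cell sets of each library, 277 and 172 were called, and all of these were among the calls with the block. With only the 2 cell sets compared in the fit, 841 were called against the Pdgfra comparison cells. The other settings, which were DESeq2's size factors, doublets removed, other limits on UMIs or mitochondrial UMIs, at least 3 Penk UMIs, and stricter marker limits on the members, kept both counts within 1.5 times, as did at least 6 Penk UMIs (683 and 501), a setting chosen after seeing the data. No count of calls could be made without a replicate, since 1 library leaves no residual degrees of freedom.

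Of 151 calls for single genes tracked across the settings, 77 kept their direction and lost no call, and 0 reversed. A setting that gave no adjusted p-value for a gene was counted as no change. Leaving out a replicate was judged by direction only, which the calls already shared in both libraries. DESeq2 did not keep 61 and the fit without the block 46, and the cause was not tested. The mean share of members over the libraries, 3.07%, became 3.17% without doublets, 3.13% at 5000 UMIs or more, 3.44% at 10% mitochondrial UMIs or less, 2.70% with at least 3, 3.55% with at least 1 and 1.99% with at least 6 Penk UMIs, and 2.98% with stricter marker limits. Within 5000 to 20000 UMIs the share was 4.78% and 5.36% of the cells in that window in the 2 libraries. It was 3.02% to 3.11% when each replicate was left out in turn. The 76 Foxd1-positive comparison cells limit what can be said of genes with few counts there.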
